A study of Canis lupus familiaris with 6 samples.

Results

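The Rab GTPases were the subject here, taken from a comparison of RasV12-transformed kidney epithelial cells grown alone or among normal neighbours. Members were the genes whose name on the array began with RAB and a digit, leaving out names that contained FIP, IP or GAP, with the brightest probe standing for each gene. This gave 47 genes on 78 of the 43603 non-control probes. Of these, 46 are Rab GTPases, and the last, RAB3IL1, is an exchange factor for Rabs that the letters of the rule let in. RAB5A, RAB5B and RAB5C were set against the rest of the family.

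The cells were MDCK-pTR GFP-RasV12 cells, a line derived from MDCK dog kidney epithelial cells that makes GFP-tagged, constitutively active Ras when tetracycline is given. In both groups they received tetracycline for 24 h and the GFP-positive cells were then sorted, either from culture alone (3 arrays) or from mixed culture with untransformed MDCK cells (3 arrays). The treatment label gives 10 MDCK cells per RasV12 cell, but the source label of mixed replicate 2 gives 100. The label for RNA extraction names a line with mutant β-catenin, which the sample titles and sources do not, and the labels do not say whether replicates came from separate dishes. P-values then measure only the spread between these samples, which may be technical.

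Rab proteins are small GTPases that mark each membrane compartment of the cell. They are switched on by exchange factors (GEFs), switched off by GTPase-activating proteins (GAPs), and in the active state recruit effectors that move, tether and fuse vesicles. RAB5 governs entry into early endosomes, RAB11 and RAB17 act in recycling to the cell surface, RAB1 and RAB2 between the endoplasmic reticulum and the Golgi, RAB27 and RAB3 in secretion, and RAB7 at late endosomes. In MDCK cells, RAB5-dependent endocytosis has been studied as part of the apical extrusion of RasV12 cells from a normal epithelium. An array of this kind measures transcripts and says nothing of how much of a Rab is in its active form.

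Each probe is a 60-base oligonucleotide, and closely related Rabs can look alike over such a length. The probes below are shown because they read the same stretch of closely related Rabs, the RAB5A and RAB5C ones being the dimmer tested probes of their genes and the RAB2 ones the brightest, with capitals marking bases that are identical in the paired sequences at the best ungapped offset. The RAB5A probe lies at chr23:23305022-23305081 (minus strand) and the RAB5C probe spans chr9:20775295-20776043 (plus strand, canFam3), and they shared 27 of 42 aligned bases.
RAB5A: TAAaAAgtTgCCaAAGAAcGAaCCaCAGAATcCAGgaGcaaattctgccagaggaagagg
RAB5C: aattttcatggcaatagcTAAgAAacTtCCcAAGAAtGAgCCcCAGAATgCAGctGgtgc
The RAB2A probe spans chr29:11039436-11041509 (plus strand) and the RAB2B probe chr15:18496008-18496801 (minus strand), and 35 of 53 aligned bases were identical. Both spans are longer than the probe, as for a probe that crosses a splice junction.
RAB2A: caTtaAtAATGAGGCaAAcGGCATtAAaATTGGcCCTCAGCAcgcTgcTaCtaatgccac
RAB2B: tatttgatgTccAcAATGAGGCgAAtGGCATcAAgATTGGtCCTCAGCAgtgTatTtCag
The brightest RAB5A probe, at chr23:23304941-23305000 (minus strand), covers the end of the reading frame. Its bases up to the stop codon are shown, with capitals on the adjacent cysteine codons that receive the lipid anchor of the protein.
RAB5A end of frame: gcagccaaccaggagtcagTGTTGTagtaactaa

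The probes of other Rabs that differed between the cultures are shown so that each result can be tied to the transcript it reads. RAB17 was read across chr25:48189120-48191286 (minus strand), RAB19 at chr16:8545302-8545361 (minus strand), RAB21 at chr10:13324822-13324881 (plus strand), RAB34 across chr9:42910217-42910357 (minus strand), and RAB20, by the dimmer of its probes, at chr22:58825754-58825813 (minus strand).
RAB17: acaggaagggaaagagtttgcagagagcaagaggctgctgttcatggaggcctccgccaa
RAB19: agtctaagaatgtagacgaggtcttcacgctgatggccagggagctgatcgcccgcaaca
RAB21: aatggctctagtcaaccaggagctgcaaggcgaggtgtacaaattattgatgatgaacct
RAB34: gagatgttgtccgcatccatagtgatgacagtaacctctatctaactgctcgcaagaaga
RAB20: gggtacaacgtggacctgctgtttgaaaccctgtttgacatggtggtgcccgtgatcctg
No probe of a tested member shared a run of 20 or more bases with a probe of another name. Allowing mismatches (at least 80% identity over at least 40 aligned bases), the brightest RAB11B probe matched 1 probe, which bears an accession as its name and was too dim to be tested.

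All values below are log2 signals relative to the 75th percentile of the same array, and a difference is mixed culture minus culture alone, from limma with Benjamini-Hochberg adjustment over all 26535 tested probes. The 75th percentile of the signal was 592 to 700 intensity units, and between 60.8% and 66.4% of the probes on each array were well above background. Over all tested probes 11.2% passed the adjusted p threshold of 0.05, with 5.5% higher and 5.72% lower in mixed culture. Each slide held the arrays of only 1 group and was scanned on its own, so that slide and culture cannot be told apart. Among 9 epithelial genes tested, CDH1, EPCAM and KRT18 included, all were well above background on all 6 arrays and none was called by limma on its brightest probe, with 4 at an unadjusted p under 0.05 and with 2 called by limma with a mean-variance trend. Those 4 were CLDN4 (0.72, limma adjusted p = 0.0842), CDH1 (-0.37, adjusted p = 0.0648), TJP1 (0.28, adjusted p = 0.0675) and OCLN (0.33, adjusted p = 0.0758), each with groups that did not overlap, and the dimmer OCLN probe was called higher (0.41, adjusted p = 0.0245). Of 10 tested genes typical of leukocytes, fibroblasts and endothelium none was called (1 at an unadjusted p under 0.05, 0 by the other tests), although PECAM1 and VWF, endothelial genes, were well above background on all 6 arrays while PTPRC, PDGFRA, CDH5 and TEK were on none. Of 9 Ras-MAPK output genes 2 were called lower (EPHA2 and FOSL1) and 0 higher, 22.2% against 11.2% of all tested probes. On these 9 genes, 3 differences were positive and 6 negative. The mean level over all 9 was 0.66 to 0.70 alone and 0.30 to 0.62 in mixed culture. The part of these marker shifts in the Rab results was not tested.

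Rab transcripts differed in both directions. Of the 38 members bright enough to be tested, 3 were higher in mixed culture (RAB17, RAB11B and RAB19) and 5 were lower (RAB2B, RAB20, RAB34, RAB2A and RAB21), with fold changes from 1.21 to 1.65. None of the RAB5 genes was among them. The share called was 21.1% of the 38 members against 11.2% of all tested probes and 10.9% when 1 probe per name was kept. The median difference was -0.04 over the 37 tested Rab GTPases and -0.00 over all tested probes. Groups did not overlap for 15 of the 38 members (39.5%), with mixed culture above in 4 and below in 11, against 37.2% of all tested probes (17.8% above and 19.4% below).

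The number of calls depended on single arrays. Without alone replicate 2, alone replicate 3, mixed replicate 2 or mixed replicate 3, limma called 0 members (10 to 12 at an unadjusted p under 0.05) and between 7 and 24 probes of the whole array. Without alone replicate 1 it called 12 members and without mixed replicate 1 it called 5. The differences themselves moved less: without mixed replicate 2, the array whose label gives another cell ratio, RAB17 differed by 0.78, RAB11B by 0.58, RAB19 by 0.37, RAB2B by -0.50, RAB20 by -0.43, RAB34 by -0.33, RAB2A by -0.25 and RAB21 by -0.27, and the RAB5 genes by -0.12 to -0.01. Scaled to the spike-in controls, which moved the median of all probes by -0.16, only RAB17 was called, and the share of calls that were higher fell from 49.0% to 30.3% over the whole array.

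**Figure D1:**
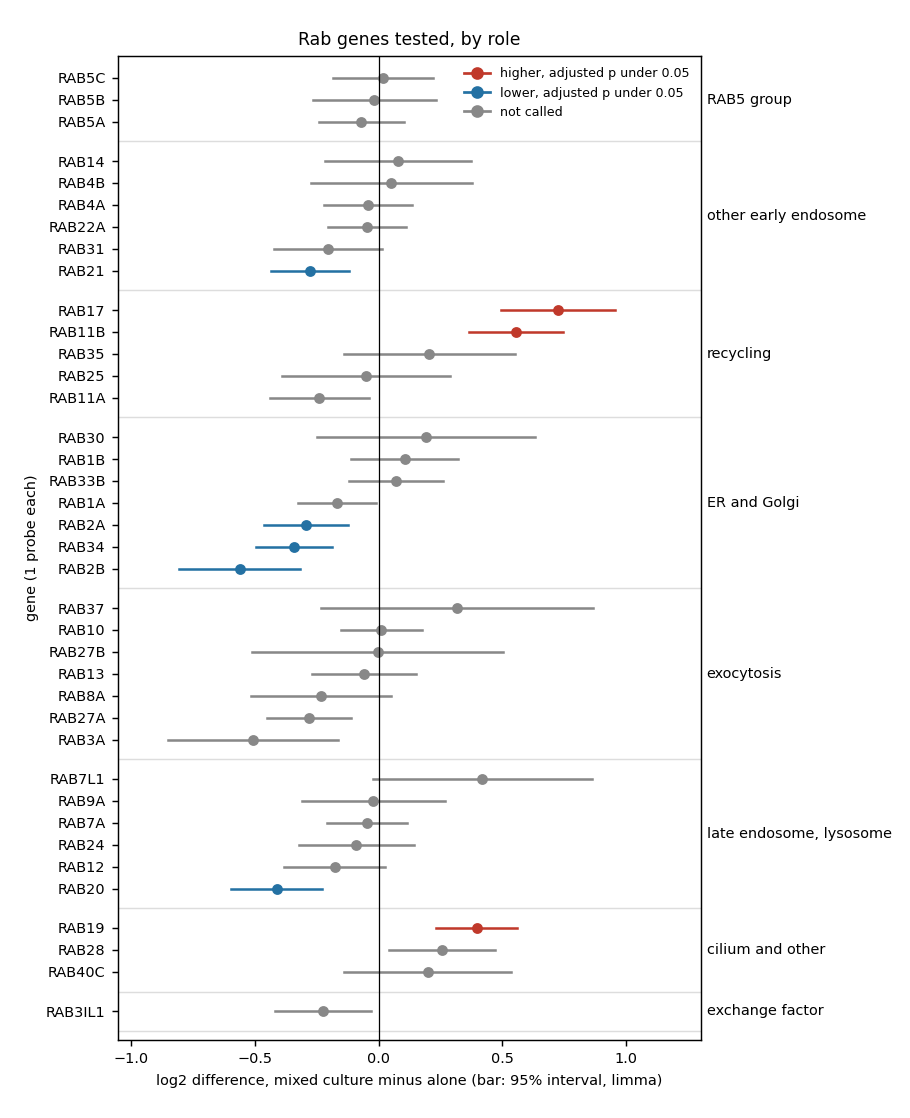
Log2 differences, mixed culture minus culture alone, for the 38 tested genes, grouped by role, with 95% intervals from limma (3 arrays a group). Red and blue mark the 3 genes higher and the 5 genes lower at an adjusted p under 0.05, and the RAB5 genes lie at the top, between -0.07 and 0.02.

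Levels of the RAB5 genes, which control the entry of endocytic vesicles into early endosomes, lay close together in both cultures by their brightest probes. RAB5A read -0.79, -0.71 and -0.63 alone and -0.79, -0.78 and -0.76 in mixed culture. The difference was -0.07 (SE 0.072, 95% interval -0.24 to 0.10, limma adjusted p = 0.554). The mixed arrays lay at the lower end of the range of those alone, and the groups overlapped.

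RAB5B read -0.18, -0.19 and -0.24 alone and -0.35, -0.01 and -0.30 in mixed culture. Its difference was -0.02 (SE 0.104, interval -0.27 to 0.23, limma adjusted p = 0.930). Mixed replicate 2 was the highest of the 6 arrays and the others of that group were the lowest, so the groups overlapped. RAB5C read 2.41, 2.26 and 2.35 alone and 2.42, 2.40 and 2.24 in mixed culture. Its difference was 0.02 (SE 0.084, interval -0.18 to 0.22, limma adjusted p = 0.907), again with overlapping groups.

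The other probes of these genes gave lower values in mixed culture. The RAB5A probe within the reading frame read -1.50, -1.52 and -1.47 alone and -1.65, -1.68 and -1.66 in mixed culture, with no overlap. The difference was -0.17 (SE 0.064, limma adjusted p = 0.126). The RAB5C probe that crosses the junction read -0.36, -0.13 and 0.04 alone and -0.44, -0.47 and -0.60 in mixed culture, also with no overlap. Its difference was -0.36 (SE 0.116, limma adjusted p = 0.0932), of the opposite sign to that of the brighter RAB5C probe. A further RAB5A probe, on the opposite strand to the others, was not well above background on any array.

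By their brightest probes, none of the 3 RAB5 genes was called by limma, 0 had an unadjusted p under 0.05, and 0 were called by the methods' t-test or by limma with a mean-variance trend. The 95% intervals of these 3 probes together reach from -0.27 to 0.23 on the log2 scale. The other RAB5A probe had an unadjusted limma p of 0.0334. The other RAB5C probe had an unadjusted limma p of 0.0190 and an interval of -0.63 to -0.08. Neither was called after adjustment. Averaged over each gene's probes in place of the brightest, RAB5C differed by -0.17 (limma adjusted p = 0.234), and scaled to the spike-in controls by -0.14.

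**Figure D2:**
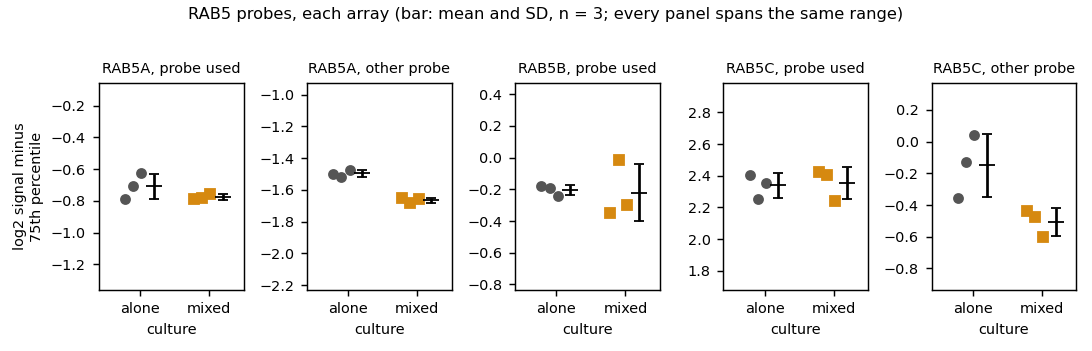
Log2 signal minus the 75th percentile for the 5 tested RAB5 probes on each array, with mean and SD (n = 3 a group). The groups overlap for the brightest probe of each gene, while the other RAB5A probe and the other RAB5C probe lie lower on all 3 mixed arrays.

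By their brightest probes the RAB5 genes had small differences. Their mean difference was -0.02, and the median of the other 34 tested Rab GTPases was -0.04. The largest size among the RAB5 genes, 0.07, exceeded that of 9 of the other 34, whose median size was 0.20, and 21.8% of all tested probes were smaller than it. On single arrays, the mean of the RAB5 genes minus the median of the other Rabs, each taken relative to its own mean in culture alone, was -0.02, 0.02 and 0.04 alone and -0.00, 0.10 and -0.03 in mixed culture. The ranges overlapped, with mixed replicate 2 the highest. With each gene's probes averaged, RAB5A differed by -0.12, RAB5B by -0.02 and RAB5C by -0.17, and the mean of the RAB5 genes minus the median of the others was -0.055, against 0.022 by the brightest probes.

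Of the other Rabs of early endosomes, 6 were tested, of which 0 were called higher and 1 lower (16.7%, against 11.2% of all tested probes). RAB21, which acts in the endocytosis of integrins, read 0.91, 0.88 and 0.91 alone and 0.67, 0.62 and 0.59 in mixed culture. It was lower by 1.21-fold (log2 difference -0.28, SE 0.066, limma adjusted p = 0.0454). The groups did not overlap, and the call was lost with the replicate number as a block (limma adjusted p = 0.0663). RAB4A and RAB4B, of fast recycling, RAB14, RAB22A and RAB31 had differences from -0.20 to 0.08 and were not called.

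Of the 5 recycling Rabs, all tested, 2 were called higher and 0 lower. Over all tested probes 11.2% were called, 5.5% of them as higher and 5.72% as lower in mixed culture. Differences were positive for 3 of the 5 Rabs and negative for 2. RAB17, an epithelial Rab of the apical recycling endosome, read -3.41, -3.58 and -3.58 alone and -2.66, -2.92 and -2.82 in mixed culture. Every mixed array was above every array of culture alone, and the rise was 1.65-fold (log2 difference 0.72, SE 0.096, limma adjusted p = 0.016). With normexp background correction the difference was 0.38 and was still called. The gene had 1 probe, with group means of -3.52 ± 0.10 alone and -2.80 ± 0.13 in mixed culture (SD, n = 3). In sorted bulk cells, a higher level per cell and a larger share of cells with the transcript cannot be told apart.

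RAB11B, of the recycling endosome, read 1.66, 1.53 and 1.48 alone and 2.18, 2.07 and 2.09 in mixed culture by its brightest probe. The rise was 1.47-fold (log2 difference 0.56, SE 0.079, limma adjusted p = 0.0183), with no overlap. Its other probe read -2.19, -2.15 and -2.06 alone and -1.87, -2.07 and -2.06 in mixed culture. That probe overlapped between the groups and differed by 0.14 (SE 0.087, limma adjusted p = 0.331), so the call rests on 1 probe of 2. The brighter probe, at chr20:52967675-52967734 (plus strand, canFam3), starts 2418 bases beyond the other on the same strand.

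RAB11A, the paralog of RAB11B, went the other way without passing the test. It read 5.50, 5.31 and 5.31 alone and 5.20, 5.08 and 5.12 in mixed culture, with no overlap. The difference was -0.24 (SE 0.084, limma adjusted p = 0.110), and its second probe gave -0.31 (limma adjusted p = 0.0698). RAB25, the epithelial member of the RAB11 group, differed by -0.05 and RAB35 by 0.21, both with overlapping groups.

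Of 7 tested Rabs of the endoplasmic reticulum and Golgi, 0 were called higher and 3 lower (42.9%, against 11.2% of all tested probes). RAB2B, which acts with RAB2A in traffic between these compartments, read -2.45, -2.23 and -2.19 alone and -2.77, -2.98 and -2.80 in mixed culture. The fall was 1.47-fold (log2 difference -0.56, SE 0.102, limma adjusted p = 0.0254) with no overlap. A second RAB2B probe read -2.44, -2.42 and -2.26 alone and -2.81, -2.66 and -2.86 in mixed culture. It was called too (log2 difference -0.40, SE 0.090, limma adjusted p = 0.0397), so both probes of the gene were lower on every mixed array. With normexp background correction the first probe's difference was -0.29, still called.

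RAB2A read 1.69, 1.68 and 1.62 alone and 1.41, 1.29 and 1.41 in mixed culture. The fall was 1.22-fold (log2 difference -0.29, SE 0.071, limma adjusted p = 0.0479) with no overlap, close to the threshold. Its second probe read 1.03, 0.99 and 0.89 alone and 0.81, 0.69 and 0.77 in mixed culture, a difference of -0.22 that was not called (limma adjusted p = 0.107). With the replicate number as a block RAB2A was not called (limma adjusted p = 0.0703), nor with its probes averaged (0.0741). A further RAB2A probe, on the opposite strand, was well above background on 1 array.

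RAB34, a Golgi Rab that also acts in building primary cilia, read 3.89, 3.91 and 3.86 alone and 3.56, 3.53 and 3.55 in mixed culture. The arrays of each group lay within a narrow band, and the fall was 1.27-fold (log2 difference -0.34, SE 0.064, limma adjusted p = 0.0267). Among the remaining Golgi and endoplasmic reticulum Rabs, RAB1A differed by -0.17, RAB1B by 0.11, RAB30 by 0.19 and RAB33B by 0.07, none of them called. RAB1A had 3 probes on one strand that were lower (-0.24 to -0.10) and 1 on the opposite strand at 0.14.

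**Figure D3:**
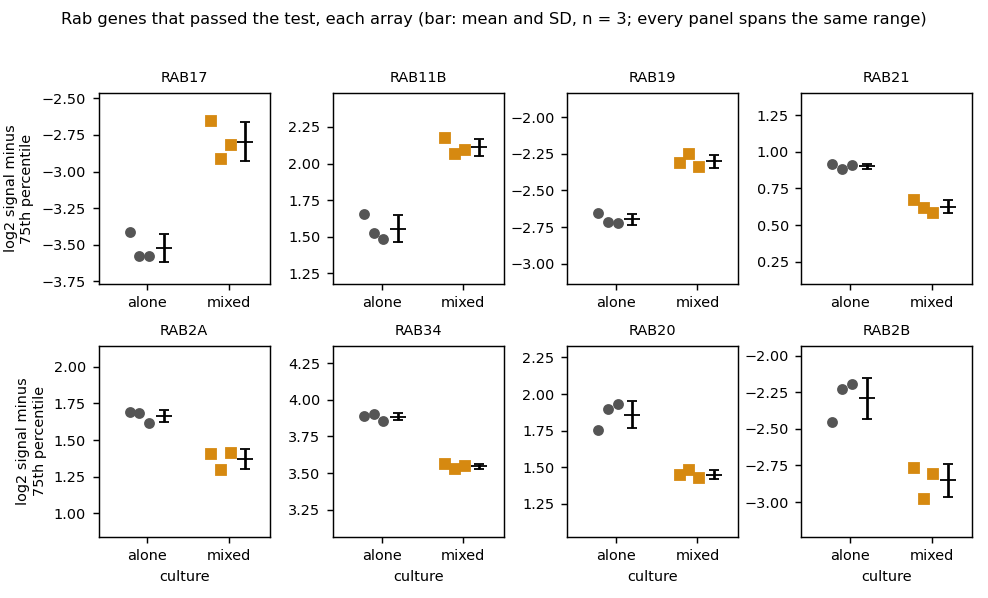
Log2 signal minus the 75th percentile on each array for the 8 Rab genes that passed the test, with mean and SD (n = 3 a group). In each panel all 3 mixed arrays lie on one side of all 3 arrays of culture alone.

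Of the Rabs of late endosomes and lysosomes, 6 were tested, of which 0 were called higher and 1 lower (16.7%, against 11.2% of all tested probes). RAB20, linked to the maturation of phagosomes, read 1.75, 1.90 and 1.93 alone and 1.44, 1.48 and 1.43 in mixed culture. The fall was 1.33-fold (log2 difference -0.41, SE 0.077, limma adjusted p = 0.0267) with no overlap. Its other probe, within the reading frame, read -0.17, 0.07 and 0.15 alone and -0.44, -0.49 and -0.47 in mixed culture, and it was called as well (log2 difference -0.48, SE 0.099, limma adjusted p = 0.0334).

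RAB7A, the Rab of late endosomes, differed by -0.05 with overlapping groups, and RAB9A by -0.02. RAB7L1, now called RAB29 and a partner of the kinase LRRK2, had one of the largest differences that did not pass. It read 1.26, 0.56 and 0.69 alone and 1.39, 1.21 and 1.17 in mixed culture, a difference of 0.42 (SE 0.185, limma adjusted p = 0.178), and its second probe gave 0.44. Alone replicate 1 stood within the range of the mixed arrays, and without that array RAB7L1 was called (0.63, limma adjusted p = 0.0119). RAB12 was lower by each of its 3 probes (-0.33 to -0.18) and none was called.

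Of 7 tested Rabs of exocytosis, none was called by limma, 2 had an unadjusted p under 0.05, and limma with a mean-variance trend called 1. That 1 was RAB27A, which drives secretion from lysosome-related organelles. It read 2.59, 2.61 and 2.63 alone and 2.42, 2.31 and 2.28 in mixed culture, with no overlap, a difference of -0.28 that just missed the threshold (SE 0.071, limma adjusted p = 0.0528). The filter for probes well above background on all 6 arrays, and normexp background correction, also put it among the calls.

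RAB3A, of regulated exocytosis, read -5.03, -5.08 and -4.62 alone and -5.45, -5.54 and -5.26 in mixed culture. It was well above background on the 3 arrays of culture alone and on 0 of the mixed arrays, so its level in mixed culture is only a bound. Culture alone read 1.42-fold higher, counted on each mixed array from the higher of the probe's signal and the lowest signal well above background (limma adjusted p = 0.0685). That value is not a minimum, since no mixed array had the probe well above background. RAB3A entered the test only through the group in which it was brighter. With the replicate number as a block it was called (limma adjusted p = 0.0372), while with normexp background correction its difference was -0.02. RAB37, also of exocytosis, differed by 0.32 (SE 0.229, limma adjusted p = 0.386), with overlapping groups. RAB8A and RAB10, which act in polarised delivery to the cell surface, differed by -0.23 and 0.01.

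Among Rabs of the cilium and others, 3 were tested, of which 1 was called higher and 0 lower (33.3%, against 11.2% of all tested probes). RAB19, a little studied Rab, read -2.65, -2.71 and -2.72 alone and -2.31, -2.25 and -2.34 in mixed culture. The rise was 1.32-fold (log2 difference 0.40, SE 0.068, limma adjusted p = 0.0231) with no overlap. RAB28, a Rab of photoreceptor cilia, was higher on every mixed array by each of 3 probes (0.18 to 0.26) without passing the test. RAB40C differed by 0.20, and RAB3IL1, the exchange factor in the list, by -0.22 (limma adjusted p = 0.119).

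The other 9 genes were not tested. RAB15 was well above background on 1 array of culture alone and 2 mixed arrays, and RAB9B on 1 array of culture alone. RAB33A, RAB36, RAB38, RAB3B, RAB3C, RAB42 and RAB44 were not well above background on any array, which sets only a bound on their levels. The probe of RAB15 shared a run of 46 bases with a probe of another name. Among the 38 tested genes, 37 were well above background on all 6 arrays.

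Where a gene had more than 1 tested probe, the probes pointed the same way for 17 of 20 genes. The exceptions were RAB1A, RAB1B and RAB5C. The median SD within groups was 0.10 over the brightest probes of the 38 members and 0.13 over all tested probes. The second set was not limited to the brightest probe of a gene, so the values are not a like comparison.

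**Figure D4:**
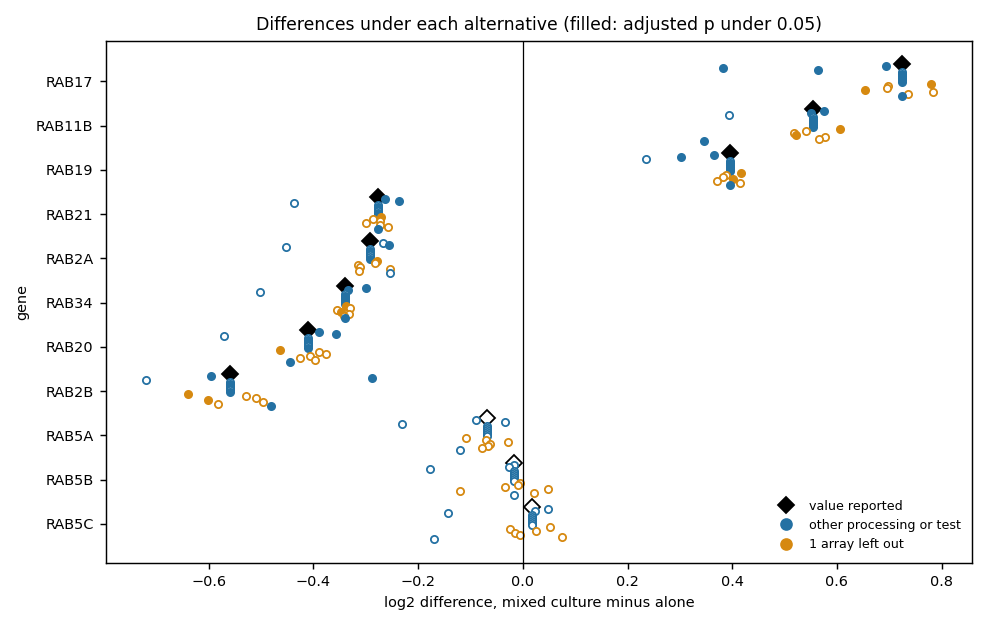
Log2 difference of the 8 called Rab genes and the RAB5 genes as reported (diamonds), under 10 other processing choices or tests (blue) and with 1 array left out (orange), filled where the adjusted p is under 0.05. No called gene crosses 0, while RAB5B and RAB5C do.

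Genes that act on or with Rabs, which are exchange factors, GTPase-activating proteins, effectors and tethers, interacting proteins and escort proteins, were examined as a list, of which 90 were tested. Limma called 7 higher and 6 lower, 14.4% against the 11.2% of all tested probes. TBC1D30, a GTPase-activating protein for RAB8A, had the largest difference of them. It read -3.52, -3.89 and -3.72 alone and -1.84, -1.75 and -1.68 in mixed culture, a rise of 3.87-fold (log2 difference 1.95, SE 0.110, limma adjusted p = 0.00492). It was the one gene of the list called under each of the 16 alternatives.

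Other GTPase-activating proteins that rose were RABGAP1L, by 0.59 (SE 0.119, limma adjusted p = 0.0321), and TBC1D4, which acts on RAB8A, RAB10 and RAB14, by 0.43 (SE 0.105, adjusted p = 0.0476). The TBC1D4 call was lost with the replicate number as a block (limma adjusted p = 0.0504). Of 23 such proteins tested, 3 were called higher and 0 lower, 13.0% against 11.2% of all tested probes. Differences were positive for 14 of them and negative for 9. A second RABGAP1L probe was called as well, at 0.51, but with its probes averaged the gene was not called. Among exchange factors outside the RAB5 group, RAB3IP, the exchange factor of RAB8 also known as Rabin8, rose by 0.50 (SE 0.091, limma adjusted p = 0.0259). Lower were DENND3, which activates RAB12, at -0.69 (SE 0.108, limma adjusted p = 0.0193), DENND2C at -0.43 and DENND4A at -0.42. Thus 1 of 19 was called higher and 3 lower, 21.1% against 11.2% of all tested probes. Differences were positive for 9 of the 19 and negative for 10. With the replicate block DENND2C was not called (limma adjusted p = 0.0626).

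Among exchange factors of RAB5, RABGEF1 differed by -0.20, RIN2 by 0.34, RIN3 by 0.47 and GAPVD1 by 0.05, with limma adjusted p-values above the threshold. Of these 4 genes RABGEF1 had an unadjusted p under 0.05, and without alone replicate 1 limma called RIN2 (0.46, adjusted p = 0.0432). Of 12 RAB5 effectors and tethers, 1 was called higher and 1 lower (16.7%, against 11.2% of all tested probes). PIK3R4, the regulatory subunit of the lipid kinase PIK3C3 that works at endosomes, differed by -0.33 (SE 0.075, limma adjusted p = 0.0427, and 0.0624 with the replicate block, which ends the call), and its other 4 probes were not called (-0.25 to -0.00). VPS45, which acts with rabenosyn in endosome fusion and was named after its values were seen, differed by 0.35 (SE 0.074, limma adjusted p = 0.0354), with its other probes at 0.25 and 0.30. EEA1, the tether recruited by RAB5, had probes at -0.16, 0.01 and -0.02, none called.

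Of 3 RAB11 family interacting proteins tested, 0 were called higher and 1 lower (33.3%, against 11.2% of all tested probes). The lower gene was RAB11FIP4 (-0.62, SE 0.132, limma adjusted p = 0.0356), as was its second probe (-0.61). Among 20 other Rab effectors tested, 2 were called higher and 1 lower, where 11.2% of all tested probes were called. Differences were positive for 10 of the 20 and negative for 10. EXPH5 and SYTL4, both effectors of RAB27, rose by 0.68 (SE 0.165, limma adjusted p = 0.0469) and 0.41 (SE 0.099, adjusted p = 0.0477). RABEPK, an effector of RAB9, fell by 0.28 on the log2 scale (SE 0.067, limma adjusted p = 0.048). Of the 8 tested escort and prenylation proteins none was called by limma or the other tests, with 1 at an unadjusted p under 0.05. With the replicate number as a block 8 of the 13 genes were called and no others, SYTL4 (limma adjusted p = 0.0781) and RABEPK (adjusted p = 0.0685) being among the 5 lost.

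**Figure D5:**
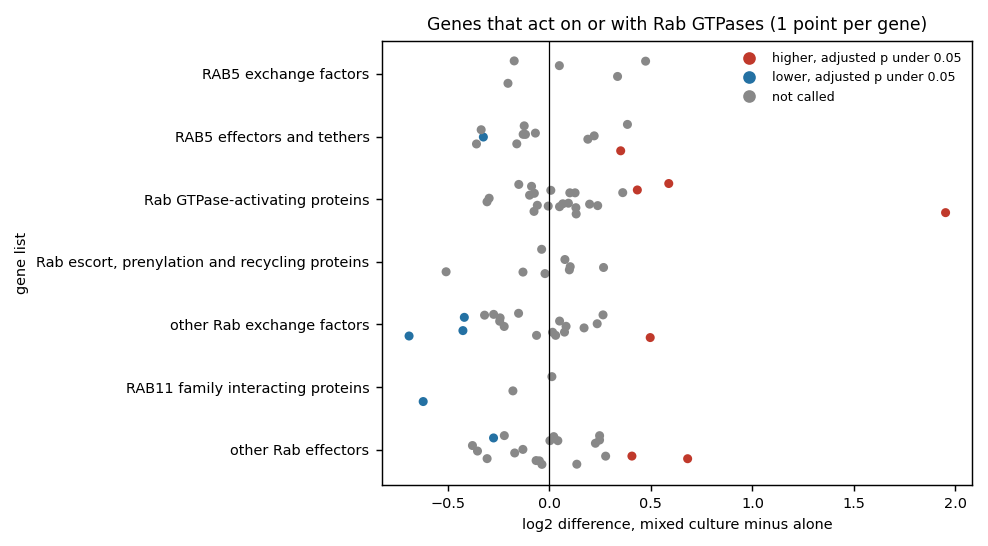
Log2 differences, mixed culture minus culture alone, for 90 tested genes that act on or with Rab GTPases, 1 point per gene, by list (the vertical spread within a list carries no value). TBC1D30, at 1.95, lies apart from the other points, and the 13 called genes are coloured.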

How the data were processed

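RNA from sorted RasV12 cells was labelled and hybridised to 6 one-colour Agilent canine arrays of about 60-base probes. The authors deposited the scanner output of each array, whose columns hold intensity per spot, and a table of log2 values. Per the file headers, intensities were extracted with Feature Extraction 10.10.1.1 and positions refer to canFam3. On each array, all but 1 or 2 of 26529 probes had a deposited value within 0.01 of their log2 processed signal less a constant close to the log2 of the array's 75th percentile. The normalization behind that table is not given in the sources used here.

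Control spots and outlier-flagged spots were left out, spots of a probe were averaged, and log2 signals were taken minus the 75th percentile of the array. A probe entered the test if every array of culture alone, or every array of mixed culture, had it well above background. Tests were two-sided, by lmFit and eBayes (limma 3.58.1, R 4.3.3), and p-values adjusted by Benjamini-Hochberg were called at 0.05. The pipeline was checked on simulated data. Tables and plots were made with Python 3.11.15, pandas 2.3.3, numpy 2.4.6, scipy 1.17.1 and matplotlib 3.10.9. The number of arrays limits the precision.

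The members, role lists, regulator lists and markers were chosen with earlier results of these data known. Named genes were RAB5A, RAB5B, RAB5C, every called Rab, the 3 largest differences among Rabs not called, other probes of these, and the called regulators (at most the 6 largest rises and 6 largest falls). Other Rabs and exchange factors of RAB5 were added as values, after their values were seen. A gene of the regulator lists is not reported here.

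Arrays with the same replicate number deviated together from their group means (correlations 0.349, 0.162 and 0.296 over 26529 probes). The numbers may thus pair the samples, and a replicate block was tried as an alternative. The reported fit had no replicate term, so its SEs, intervals and p-values are unpaired. The replicate number is also the position on the slide, and alone replicate 2 correlated higher with mixed replicate 3 (0.238). Alternatives were quantile normalization, normexp background correction (offset 50), scaling to 7 spike-in controls, no filter or a filter for all 6 arrays, the deposited table, a replicate block, the methods' t-test (unpaired, two-sided), a mean-variance trend, averaging a gene's probes, and leaving out each array. The slide could not enter as a block, because no slide carried both cultures.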

Additional observations from a re-analysis of the deposited data

How the results depend on the processing

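Each called Rab gene kept its direction under all 16 alternatives, while calls depended on scaling, filter and single arrays. Scaled to spike-in controls, 1 Rab gene, 2 regulators and effectors and 995 probes were called. With no filter on dim probes, the counts were 0 (12 Rab genes at an unadjusted p under 0.05), 1 and 12, and by the methods' t-test 5, 2 and 826. The no-filter fit tested 47 members in place of 38. The replicate block left 7 Rab genes (6 of the 8, losing RAB21 and RAB2A and gaining RAB3A) and 8 regulators, and it changed no RAB5 call. Averaging a gene's probes left 7 regulators (DENND2C, DENND3, DENND4A, RAB11FIP4, RAB3IP, SYTL4 and TBC1D30). RABGAP1L, TBC1D4, EXPH5, VPS45, PIK3R4 and RABEPK were lost. Leaving out 1 array gave 0 to 12 Rab genes, 1 to 23 regulators and 7 to 7335 probes, with the lowest counts without alone replicate 2 or 3 or mixed replicate 2 or 3 and the highest without alone replicate 1. Without mixed replicate 1, 5 Rab genes, 8 regulators and 2009 probes were called.

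RAB5C changed sign with spike-in scaling (-0.14) and with its probes averaged (-0.17). Leaving out 1 array, RAB5B ranged from -0.12 to 0.048 and RAB5C from -0.024 to 0.075. The median over Rab genes was -0.017 with normexp correction, -0.20 with spike-in scaling and 0.0039 with no filter. The mean of the RAB5 genes minus the median of the others was -0.055 with probes averaged, against 0.022. With spike-in scaling RAB19 differed by 0.23 and the 5 lower Rabs by -0.72 to -0.44. The cause was not tested. The number of arrays limits the precision, and probes dim in both groups have only bounds. No block for the slide was possible because no slide carried both cultures.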
